A study of Mus musculus with 16 samples.

Results

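RNA levels of 10 genes that are switched on by ERK signalling, and that mostly restrain it in return, were followed in mouse mammary tumour cells treated with TGFb or Wnt3a. The genes were taken by name: the dual specificity phosphatases Dusp4, Dusp5 and Dusp6, the Sprouty genes Spry1, Spry2 and Spry4, the related Spred1, the ETS factors Etv4 and Etv5, and Phlda1. All 10 were among the 19665 genes of the count table, and all 10 were among the 13172 genes with enough reads to be tested. The cells were 2 lines from tumours of MMTV-PyMT mice (FVB/N strain), in which the mouse mammary tumour virus promoter drives the polyoma middle T oncogene in mammary epithelium. Line 631 was Pygo2 +/+ (called WT here) and line 828 was Pygo2 AE/AE, a mutant of Pygo2, a co-factor of beta-catenin in Wnt signalling that binds histones. Each line was grown in DMEM with 10% serum in 4 ways, namely for 4 days with TGFb at 2 ng/ml, for 3 days with Wnt3a at 100 ng/ml, or untreated beside each of these. That made 8 groups of 2 libraries, 16 in all. With 1 line per genotype, the mutation and the line cannot be told apart. The submitters call the samples biological duplicates without saying how they were grown, so p-values here reflect only how far these samples spread, which may be technical.

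Growth factors that bind receptor tyrosine kinases activate Ras, which activates Raf, MEK and then ERK. Active ERK raises transcription of its own inhibitors, so the messages of Dusp, Sprouty and Spred genes are widely used as a readout of pathway output. Dusp proteins remove the activating phosphates from ERK, Sprouty and Spred proteins act higher up at the receptor and Ras, and Etv4 and Etv5 are transcription factors that carry the signal to target genes. In the mammary gland the pathway drives branching of the ducts, and middle T antigen itself feeds into it through Src, Shc and phosphoinositide kinase.

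The libraries held 20530538 to 26191846 counted reads each. The epithelial markers Epcam (285 to 564 CPM, a count scaled to library size) and Cdh1 (468 to 777 CPM) were high in every library. On the same list Krt8 (131 to 928 CPM) and Krt18 (181 to 1050 CPM) varied more, and Cldn4 ran from 0.330 to 84.7 CPM. The leukocyte marker Ptprc was at 0 in 10 libraries and at most 0.758 CPM. The 2 libraries of a group lay close in the 4-day experiment, where the log2 ratio of replicates had an SD over genes of 0.153 to 0.329, and further apart in the 3-day experiment (0.337 to 0.759). In bulk RNA, fewer cells of a type and less RNA per cell cannot be told apart. Levels are given as CPM scaled by the trimmed mean of M-values, as replicate 1 and then replicate 2. A gene passed a test at an adjusted p under 0.05 over all genes tested.

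One library stood apart for these genes, replicate 1 of the untreated 3-day AE/AE cells. Against its own replicate 2 it held 34.5 against 3.38 CPM of Dusp5, 7.16 against 2.02 of Spry4, 22.7 against 9.24 of Spry1 and 21.2 against 11.1 of Dusp4. Other transcripts induced by ERK stood high in it too, among them Fos at 155 against 16.2 CPM, Egr3 at 27.6 against 1.82 and Ier3 at 293 against 62.5, and 9 of 13 on that list were more than 2-fold higher than in replicate 2. Of all tested genes, 13% were. Dusp6 (87.1 against 89.6 CPM) and Phlda1 (57.4 against 59.8) did not differ in this way, and Etv5 was lower in it (63.2 against 85.3). This library also held the most Cd14, a myeloid marker that epithelial cells can express (97.8 CPM, against 12.3 at the least), and the marker sum of the immune list was 34.0 to 97.9 CPM in its group. In the 3-day WT groups the replicates differed too. In untreated WT cells 5 of the 13 were more than 2-fold lower in replicate 1 and 1 was higher. Of all tested genes, 17.3% were lower and 7.91% higher. Under Wnt3a 5 were lower and 0 higher, against 12.9% and 10.7% of all tested genes. Fos was 5.96 against 41.8 CPM in untreated WT cells and 18.3 against 113 under Wnt3a. Egr3 went the other way, at 42.8 against 30.4 and 20.3 against 10.8.

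**Figure D1:**
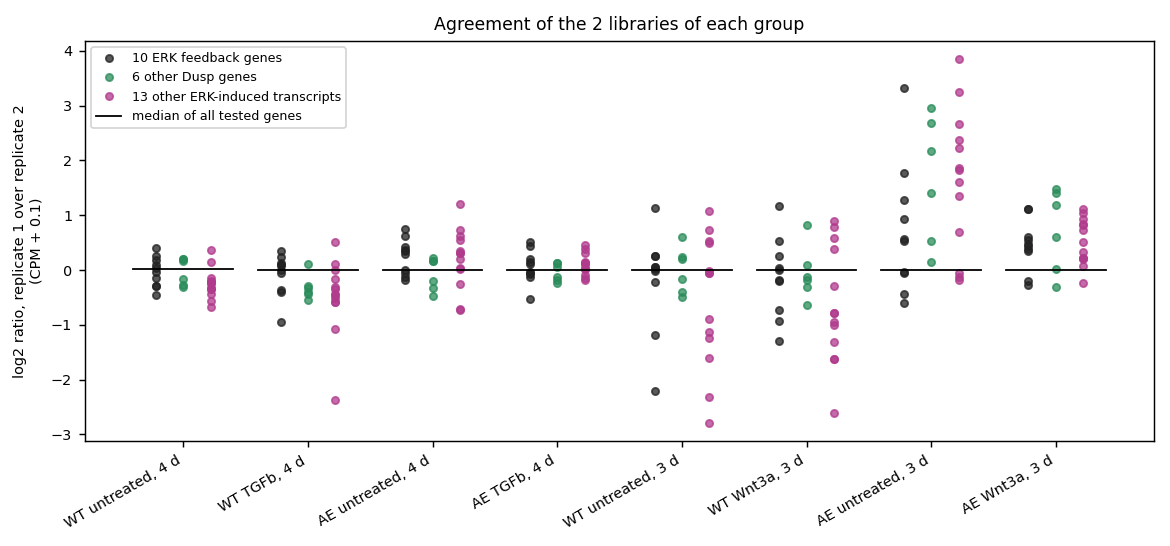
The log2 ratio of replicate 1 over replicate 2 (y axis, CPM plus 0.1) is plotted for each gene in each of the 8 groups (x axis), with the 10 ERK feedback genes in black, 6 other Dusp genes in green and 13 other ERK-induced transcripts in purple. The untreated 3-day AE/AE group has the most points above 1, with 9 of 13 ERK-induced transcripts and 4 of 6 other Dusp genes there, and the 4-day groups stay nearer to 0.

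Upstream sequence was at hand for 6 of the 10 genes, in RefSeq promoter windows of GRCm38.p6, which cover 250 bases before the start of transcription. Dusp4, Spry4, Etv4 and Phlda1 were not among them. The windows below belong to the 4 of these 6 genes that passed a test under TGFb or Wnt3a, printed 5′ to 3′ along the gene's strand, with a CCAAT box in capitals, which appears as ATTGG where it lies on the opposite strand. The first is Dusp6, chr10:99262981-99263230, plus strand. The second is Spry2, chr14:105896820-105897069, minus strand. The third is the downstream of the start sites of Etv5, chr16:22438369-22438618, minus strand. The last is Spry1, chr3:37639697-37639946, plus strand.
Dusp6: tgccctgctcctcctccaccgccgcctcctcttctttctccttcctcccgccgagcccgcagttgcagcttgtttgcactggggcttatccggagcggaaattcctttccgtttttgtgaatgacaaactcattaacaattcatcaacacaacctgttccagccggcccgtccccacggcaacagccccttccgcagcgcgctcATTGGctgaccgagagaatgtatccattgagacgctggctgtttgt
Spry2: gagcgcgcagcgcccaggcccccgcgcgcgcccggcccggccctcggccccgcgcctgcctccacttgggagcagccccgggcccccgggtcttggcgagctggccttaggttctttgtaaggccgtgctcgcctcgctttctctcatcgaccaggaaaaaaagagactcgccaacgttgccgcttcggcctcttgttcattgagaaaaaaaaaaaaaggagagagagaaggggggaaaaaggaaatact
Etv5: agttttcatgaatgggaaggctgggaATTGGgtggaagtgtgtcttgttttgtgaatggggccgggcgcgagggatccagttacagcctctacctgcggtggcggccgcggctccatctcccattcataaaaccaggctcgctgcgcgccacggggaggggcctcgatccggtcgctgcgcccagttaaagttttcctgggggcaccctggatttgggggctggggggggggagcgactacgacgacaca
Spry1: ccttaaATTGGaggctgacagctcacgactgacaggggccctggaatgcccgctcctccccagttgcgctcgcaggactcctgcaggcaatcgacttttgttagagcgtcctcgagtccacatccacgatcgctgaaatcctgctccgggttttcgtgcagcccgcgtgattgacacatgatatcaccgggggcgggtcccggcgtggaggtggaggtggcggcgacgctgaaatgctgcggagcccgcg
For Dusp5, whose level was high in the library that stood apart, 30 bases are shown (chr19:53529057-53529086, plus strand), with abutting CArG boxes, the site of serum response factor, in capitals.
Dusp5: aaatacCCATATTTGGCCTTATATGGgcac
Searched on both strands, the CArG box occurred in 1 of 7 windows of these genes (Etv5 has several starts) and in 1.47% of all 32851 windows of that length. The CCAAT box occurred in 4 of 7 and in 33.8% of all. None of the 7 windows held CCGGAAGT, an ETS site (2.88% of all windows), TGANTCA, an AP-1 site (6.75%), TGACGTCA, a CRE (1.55%), CTTTGAT, a TCF/LEF site (3.21%), or GTCTAGAC, a SMAD site (0.167%). No motif contains another. These searches cover these letters in these windows, and CArG and CCAAT were chosen after the sequences were seen.

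**Figure D2:**
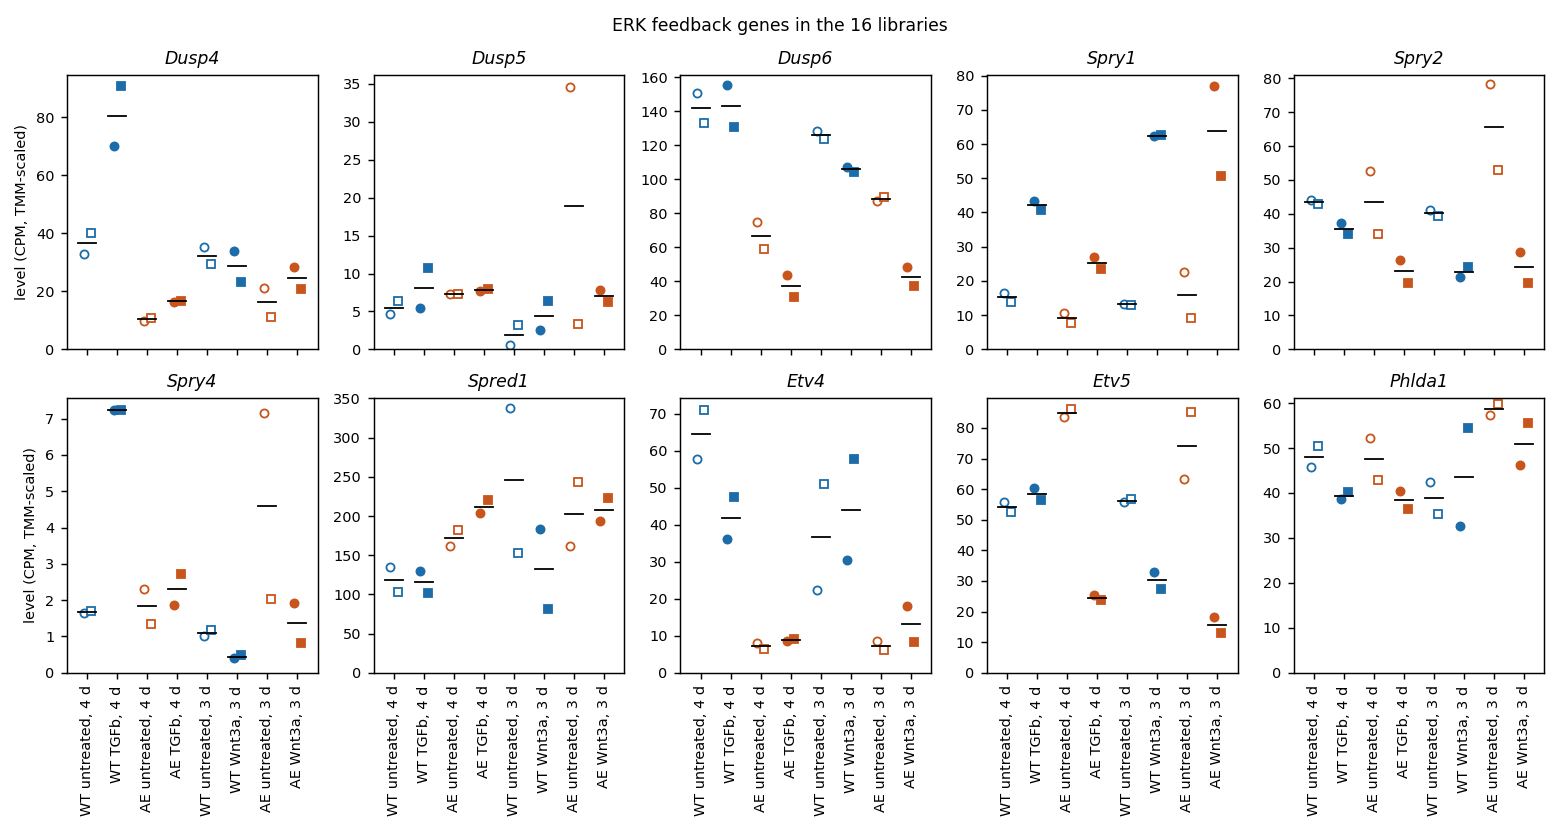
Each panel gives the level of 1 gene (y axis, TMM-scaled CPM) in the 16 libraries by group (x axis), WT in blue and AE/AE in orange, untreated open and treated filled, replicate 1 as circles, replicate 2 as squares and the group mean as a bar. Etv4 is low in all AE/AE libraries, Spry1 is high in all treated groups, and Dusp5 in 1 untreated AE/AE library reaches 34.5 CPM.

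Without treatment, the AE/AE line held less Etv4, Dusp4 and Dusp6 than the WT line and somewhat more Etv5. Of the 10 genes, 6 passed the test, 3 lower and 3 higher. Of all genes tested 53.8% passed, 27.4% higher and 26.4% lower, so the lines differed at most genes and the share here was near that background. The comparison took the 4 untreated libraries of each line together, 2 from each experiment. The libraries of the lines did not overlap for 4 of the 10 genes, against 46.4% of all tested genes. The median log2 fold change of the 10 was 0.21, against 0.01 over all tested genes.

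Etv4, a PEA3-type ETS factor (chr11:101769747-101785310), held 57.9 and 71.0 CPM in untreated 4-day WT cells and 22.4 and 51.1 in the 3-day ones. In the AE/AE line it held 8.18 and 6.33 CPM at 4 days and 8.70 and 6.02 at 3 days. Every WT library was above every AE/AE library, and the level was 6.66-fold lower in AE/AE (log2 −2.74 ± 0.34 SE, adjusted p = 2.46e-05). The treated libraries, which entered the same fit but not this comparison, kept that order. Among them the highest AE/AE value was 18.1 CPM under Wnt3a and the lowest WT value was 30.4. Its close relative Etv5 (chr16:22381313-22439570) went the other way, with 52.6 to 56.7 CPM in the 4 untreated WT libraries and 63.2 to 86.2 in the AE/AE ones. The AE/AE level was 1.44-fold higher (log2 0.52 ± 0.15, adjusted p = 0.00985), but with offsets for GC content and length the Etv5 difference was 0.07 (adjusted p = 0.678).

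Dusp4, a nuclear phosphatase of ERK and other MAP kinases (chr8:34807610-34819894), held 33.0 and 40.2 CPM in untreated WT cells at 4 days and 35.1 and 29.5 at 3 days. The AE/AE values were 9.91 and 10.8 CPM at 4 days and 21.2 and 11.1 at 3 days. No AE/AE library reached the lowest WT one, although the higher 3-day value came nearest, and Dusp4 was 2.65-fold lower (log2 −1.41 ± 0.22, adjusted p = 0.000189). Dusp6, the cytoplasmic phosphatase most specific for ERK (chr10:99263231-99267489), held 151 and 133 CPM in WT cells at 4 days and 128 and 123 at 3 days. In AE/AE cells it held 74.7 and 58.9 CPM, and 87.1 and 89.6. Dusp6 was thus lower in every AE/AE library, by 1.74-fold (log2 −0.80 ± 0.15, adjusted p = 0.000761). From the 4-day libraries alone the difference was −1.79 for Dusp4 and −1.06 for Dusp6, both past the test. From the 3-day libraries alone it was −0.98 (adjusted p = 0.13) and −0.50 (adjusted p = 0.223), and only Etv4 passed there, at −2.31 (adjusted p = 0.0208).

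The remaining calls rested on the library that stood apart. Dusp5, a nuclear phosphatase specific for ERK (chr19:53529145-53541809), was at 0.606 to 6.36 CPM in untreated WT cells. In AE/AE cells it was at 7.32, 7.27 and 3.38 CPM and at 34.5 in that 1 library. Its log2 difference of 1.86 ± 0.63 (adjusted p = 0.0248) fell to 0.62 (adjusted p = 0.319) without it. Spry4, a Sprouty inhibitor of Ras activation, was at 1.01 to 1.70 CPM in untreated WT cells and at 2.32, 1.35, 2.02 and, in that library, 7.16 CPM in AE/AE cells. Its difference of 1.09 ± 0.39 (adjusted p = 0.0338) fell to 0.50 (adjusted p = 0.23). Dusp5 also missed the threshold, at adjusted p 0.0513 to 0.0834, without replicate 1 or 2 of 4-day WT, replicate 1 of 4-day AE/AE or replicate 1 of 3-day WT. Spry4 did so at 0.051 to 0.13 without any of these or replicate 2 of 3-day WT. Spry1, another Sprouty inhibitor, did not pass in the pooled test (−0.22 ± 0.25, adjusted p = 0.465), but it did without the library, at −0.62 (adjusted p = 0.021), and in the 4-day libraries alone, at −0.71 (adjusted p = 0.00762). Spry2, Spred1 and Phlda1 differed by 0.35, 0.13 and 0.29, with adjusted p of 0.149, 0.721 and 0.166, and Spred1 passed in the 4-day libraries alone (0.56, adjusted p = 0.0166).

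The fibroblast marker list also separated the lines. The summed level of its 6 genes was 4.77 to 46.6 CPM over the WT libraries and 109 to 266 CPM over the AE/AE ones, mostly Pdgfra and Col1a1, while Lum was at 0 in 12 of 16 libraries and Fap in 11. The muscle list was at or below 0.404 CPM in WT and at 2.98 to 11.6 CPM in AE/AE, and the myoepithelial list ran lower in AE/AE (79.3 to 228 CPM) than in WT (206 to 1062 CPM) over all libraries, with some overlap. Their part in the differences between the lines was not tested.

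**Figure D3:**
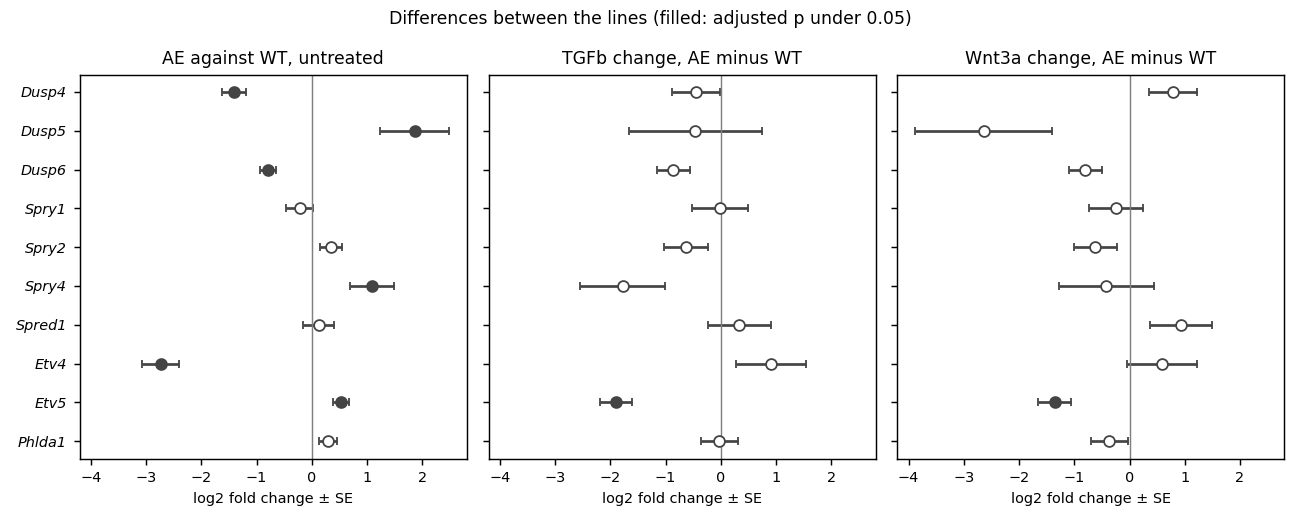
Points give the log2 fold change and bars its SE (x axis) for each of the 10 genes (y axis), for untreated AE/AE against WT and for the difference AE/AE minus WT in the change under TGFb and under Wnt3a; filled points have an adjusted p under 0.05. Etv4 lies at −2.74 in the first panel, and Etv5 is the filled point in the other panels, at −1.89 and −1.35.

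TGFb raised Spry1 in both lines. Dusp4 and Spry4 also rose in WT cells, and Etv5 and Dusp6 fell in AE/AE cells. Of the 10 genes, 3 rose and none fell in WT, where 27.6% of all genes changed, 14.7% upward and 12.9% downward. In AE/AE, 1 rose and 2 fell, where 10.4% of all genes changed, 6.09% upward and 4.32% downward. Treated and untreated libraries did not overlap for 7 of the 10 genes in WT and 9 in AE/AE. Of all tested genes, 71% and 77.2% did not overlap, so a lack of overlap was common under TGFb. The median log2 fold change of the 10 was 0.06 in WT and 0.20 in AE/AE, against 0.06 over all tested genes in WT and −0.0042 in AE/AE. Marker sums differed with TGFb as well. In WT the fibroblast sum was 5.70 to 5.92 CPM untreated and 35.8 to 46.6 treated, and the myoepithelial sum was 606 to 1062 and 284 to 535. In AE/AE the fibroblast sum was 193 to 206 CPM untreated and 227 to 239 treated. Their part in these changes was not tested.

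Spry1 (chr3:37639947-37644599) stood at 16.5 and 13.8 CPM in untreated WT cells and at 43.4 and 40.9 after TGFb. In AE/AE cells it stood at 10.5 and 7.82 CPM, and at 27.1 and 23.4 after TGFb. Treated libraries were above untreated ones in each line, and the size was alike, 2.77-fold in WT (log2 1.47 ± 0.35, adjusted p = 0.00825) and 2.75-fold in AE/AE (1.46 ± 0.36, adjusted p = 0.0213). The lines differed by −0.01 in this change, with a 95% interval from −1.11 to 1.09. Dusp4 rose from 33.0 and 40.2 CPM to 70.0 and 90.6 in WT (2.20-fold, log2 1.13 ± 0.31, adjusted p = 0.0163). AE/AE cells went from 9.91 and 10.8 CPM to 16.4 and 16.8, which did not overlap either but missed the threshold (0.68 ± 0.31, adjusted p = 0.225), and it passed when the 4-day libraries were fitted alone (0.67, adjusted p = 0.0111). Spry4 rose in WT from 1.64 and 1.70 CPM to 7.23 in each treated library (4.32-fold, log2 2.11 ± 0.55, adjusted p = 0.0128). The AE/AE libraries of Spry4 overlapped, at 2.32 and 1.35 CPM untreated and 1.87 and 2.73 treated.

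Etv5 showed the widest split between the lines. In WT it held 56.0 and 52.6 CPM untreated and 60.3 and 56.5 with TGFb, a difference within the spread (0.11 ± 0.21, adjusted p = 0.767). The AE/AE libraries held 83.5 and 86.2 CPM untreated and 25.4 and 23.6 with TGFb, a 3.46-fold fall (log2 −1.79 ± 0.21, adjusted p = 0.00046). The change in AE/AE minus that in WT was −1.89 ± 0.30 (adjusted p = 0.00169), and Etv5 was the 1 gene of the 10 to pass this test, which 8.83% of all genes passed, 5.04% upward and 3.79% downward. Leaving out any single library of the 8 kept this call. Dusp6 stayed level in WT, at 151 and 133 CPM untreated and 155 and 131 treated. In AE/AE it fell from 74.7 and 58.9 CPM to 43.6 and 30.6 (1.80-fold, log2 −0.85 ± 0.21, adjusted p = 0.0251), and the AE/AE change minus the WT change, −0.86 ± 0.30, did not pass (adjusted p = 0.11). It passed with the replicate number as a block within each line (−0.87, adjusted p = 0.0292) and with GC and length offsets (−0.96, adjusted p = 0.0159). Fitted on the 4-day libraries alone, that difference passed for Dusp6 (−0.88, adjusted p = 0.0332), Spry4 (−1.78, adjusted p = 0.011) and Etv4 (0.91, adjusted p = 0.0275) as well.

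Spry2, a Sprouty inhibitor (chr14:105891947-105896819), was at 44.0 and 42.8 CPM in WT and 37.3 and 33.9 after TGFb. AE/AE cells had 52.7 and 34.1 CPM and 26.5 and 19.5 after TGFb. All treated values were below the untreated ones, with log2 changes of −0.29 (adjusted p = 0.501) in WT and −0.92 ± 0.28 (adjusted p = 0.0593) in AE/AE. The AE/AE value of Spry2 passed under 6 of 10 alternatives, DESeq2 (adjusted p = 0.0218) and the replicate block (0.0343) among them. Etv4 went from 57.9 and 71.0 CPM to 36.1 and 47.4 in WT (−0.63 ± 0.44, adjusted p = 0.337), without overlap, and passed in the 4-day libraries alone (−0.62, adjusted p = 0.0129). AE/AE values were 8.18 and 6.33 CPM, then 8.65 and 9.09.

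Spred1, which brings neurofibromin to Ras (chr2:117121071-117182279), was at 135 and 103 CPM in WT and 130 and 102 after TGFb, and at 162 and 183 in AE/AE and 203 and 221 after TGFb. Phlda1, a pleckstrin-homology-like protein (chr10:111506286-111508649), was at 45.7 and 50.4 CPM in WT, then 38.7 and 40.1, and at 52.2 and 42.9 in AE/AE, then 40.4 and 36.4. Dusp5 was at 4.62 and 6.36 CPM in WT, then 5.51 and 10.7, and at 7.32 and 7.27 in AE/AE, then 7.72 and 7.98. None of these 3 passed in either line.

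Several of these calls lay near the threshold and were lost when 1 of the 4 libraries was left out. In WT, Dusp4 lost its call without untreated replicate 1 (adjusted p = 0.134), untreated replicate 2 (1.28, adjusted p = 0.0547) or TGFb replicate 2 (0.94, adjusted p = 0.124), and also with GC and length offsets (0.93, adjusted p = 0.0588). Spry4 lost it without the same 3 libraries, at 2.09 to 2.13 (adjusted p 0.0501 to 0.0906), and Spry1 without untreated replicate 2 (1.35, adjusted p = 0.0754). In AE/AE, Spry1 missed the threshold without any of the 4 libraries, at 1.26 to 1.69 (adjusted p 0.0863 to 0.201). Dusp6 missed it without untreated replicate 1 or 2 or TGFb replicate 2, at −0.61 to −1.01 (adjusted p 0.0622 to 0.291). Etv5 kept its AE/AE call without each library in turn.

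**Figure D4:**
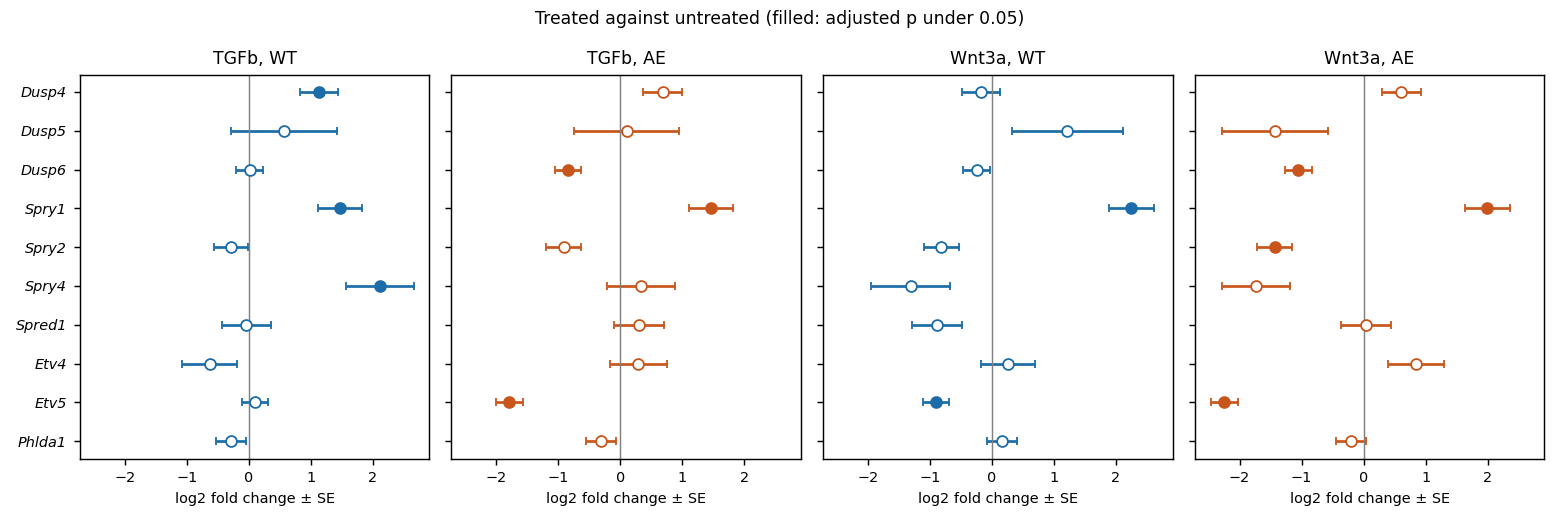
Log2 fold change of treated over untreated cells (x axis, bars ± SE) for the 10 genes (y axis), with 1 panel for each factor and line; filled points have an adjusted p under 0.05. Spry1 is a filled point to the right in all 4 panels, at 1.46 to 2.25, and Etv5 is a filled point to the left in all but TGFb in WT.

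Wnt3a raised Spry1 and lowered Etv5 in both lines, and in AE/AE cells it also lowered Dusp6 and Spry2. In WT, 1 of the 10 genes rose and 1 fell, where 4.28% of all genes changed, 2.26% upward and 2.02% downward. In AE/AE, 1 rose and 3 fell, where 9.33% of all genes changed, 4.59% upward and 4.74% downward. Treated and untreated libraries did not overlap for 5 of the 10 genes in WT and 6 in AE/AE, against 31.3% and 45.3% of all tested genes. The median log2 fold change of the 10 was −0.21 in WT and −0.63 in AE/AE, against 0.01 and −0.03 over all tested genes. Fitted on the 3-day libraries alone, none of the 10 passed in WT, and in AE/AE only Etv5 did, with fold changes of the same size. In AE/AE the fibroblast marker sum was 201 to 266 CPM untreated and 109 to 117 under Wnt3a, and the immune sum was 34.0 to 97.9 and 18.0 to 22.4. In WT the fibroblast sum was 7.22 to 10.2 CPM untreated and 4.77 to 4.88 under Wnt3a. Their part in these changes was not tested.

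Spry1 rose from 13.2 and 13.1 CPM to 62.3 and 62.6 in WT and from 22.7 and 9.24 to 76.9 and 50.6 in AE/AE. The treated libraries lay far above the untreated ones, 4.75-fold in WT (log2 2.25 ± 0.36, adjusted p = 0.00483) and 3.99-fold in AE/AE (2.00 ± 0.36, adjusted p = 0.00385). Without the AE/AE library that stood apart, the AE/AE value was 2.78 (adjusted p = 0.000526). In the 3-day libraries alone the Spry1 values were 2.25 (adjusted p = 0.0981) and 1.99 (adjusted p = 0.0566). The change in AE/AE minus that in WT was −0.25 ± 0.49 (adjusted p = 0.775), and 0.54 without that library. Among the 8 groups, the order of Spry1 was Wnt3a in both lines, whose libraries overlapped, then TGFb in WT and TGFb in AE/AE, then the untreated groups.

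Etv5 fell from 55.7 and 56.7 CPM to 32.9 and 27.5 in WT (1.86-fold, log2 −0.90 ± 0.21, adjusted p = 0.0332). In AE/AE it fell from 63.2 and 85.3 CPM to 18.1 and 13.1 (4.76-fold, log2 −2.25 ± 0.22, adjusted p = 7.05e-05), and to −2.45 (adjusted p = 0.000128) without untreated replicate 1. The fall was deeper in AE/AE by −1.35 ± 0.30 (adjusted p = 0.0371), the 1 call among the 10 in a test that 2.34% of all genes passed, 1.18% upward and 1.16% downward. That call was lost without untreated WT replicate 1 (−1.34, adjusted p = 0.0727), untreated AE/AE replicate 2 (−1.12, adjusted p = 0.0838) or Wnt3a AE/AE replicate 2 (−1.16, adjusted p = 0.133), but not without the AE/AE library that stood apart (−1.56, adjusted p = 0.0199). Both named AE/AE replicate 2 libraries held more reads of Lars2 (0.128% and 0.157% of counts) than the other 14 (at most 0.0359%), and without them the difference was −0.94 (adjusted p = 0.192). What part this plays was not tested. The WT fall itself missed the threshold without untreated replicate 1 (−0.91, adjusted p = 0.0821) or Wnt3a replicate 2 (−0.77, adjusted p = 0.186), with no filter on low counts (adjusted p = 0.0508) and under total-count scaling (−0.79, adjusted p = 0.0671).

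Dusp6 held 128 and 123 CPM in untreated WT cells and 107 and 104 under Wnt3a, which did not overlap but did not pass (−0.25 ± 0.21, adjusted p = 0.476). In AE/AE it fell from 87.1 and 89.6 CPM to 48.3 and 37.0 (2.07-fold, log2 −1.05 ± 0.21, adjusted p = 0.00813). Spry2 went from 41.0 and 39.4 CPM to 21.4 and 24.2 in WT (−0.82 ± 0.28, adjusted p = 0.122), and passed by DESeq2 (adjusted p = 0.0439) and with the block within line (0.00983). In AE/AE it fell from 78.2 and 52.8 CPM to 28.7 and 19.6 (2.71-fold, log2 −1.44 ± 0.28, adjusted p = 0.0064). Both genes were lower in every treated library of either line. Without untreated AE/AE replicate 1 the values were −1.07 for Dusp6 (adjusted p = 0.0254) and −1.13 for Spry2 (adjusted p = 0.0431). Without Wnt3a AE/AE replicate 2 both missed the threshold, Dusp6 at −0.89 (adjusted p = 0.0857) and Spry2 at −1.21 (adjusted p = 0.0802). Without both AE/AE libraries rich in Lars2 the Dusp6 change was −0.88 and also missed the threshold. The AE/AE change minus the WT change was −0.80 ± 0.30 for Dusp6 (adjusted p = 0.22) and −0.62 ± 0.39 for Spry2 (adjusted p = 0.395), so neither was shown to respond differently.

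Spry4 stood at 1.01 and 1.19 CPM in untreated WT cells and at 0.402 and 0.479 under Wnt3a (−1.31 ± 0.64, adjusted p = 0.257). The AE/AE libraries stood at 7.16 and 2.02 CPM untreated and 1.92 and 0.828 under Wnt3a (−1.74 ± 0.55, adjusted p = 0.0753), and the change was −0.55 (adjusted p = 0.702) without the library that stood apart. Without the other untreated library Spry4 passed (−2.38, adjusted p = 0.01), as it did by DESeq2 (adjusted p = 0.0319), with the block within line (0.0274) and with GC and length offsets (0.0354). Dusp5 moved with the same library: it was at 34.5 and 3.38 CPM untreated and 7.90 and 6.21 under Wnt3a in AE/AE, a log2 change of −1.43 that became 1.06 without it, neither past the test. In WT Dusp5 was at 0.606 and 3.16 CPM untreated and 2.54 and 6.36 under Wnt3a. Dusp4 was at 35.1 and 29.5 CPM, then 34.0 and 23.4, in WT, and at 21.2 and 11.1, then 28.5 and 20.9, in AE/AE. Its AE/AE change of 0.61 (adjusted p = 0.315) became 1.15 (adjusted p = 0.0492) without that library.

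Etv4 was at 22.4 and 51.1 CPM in WT, then 30.4 and 57.6 under Wnt3a, and at 8.70 and 6.02 in AE/AE, then 18.1 and 8.32. Spred1 was at 338 and 153 CPM in WT, then 183 and 82.0, and at 161 and 244 in AE/AE, then 194 and 223. In both genes the gap between the WT replicates exceeded the change under Wnt3a, and it had the same direction with and without treatment. Spred1 in WT, at −0.89 ± 0.40 (adjusted p = 0.228), passed without untreated replicate 2 (−1.35, adjusted p = 0.0398) or Wnt3a replicate 1 (−1.58, adjusted p = 0.0273), and with the replicate number as a block within each line (−0.89, adjusted p = 0.0226). Phlda1 was at 42.5 and 35.4 CPM in WT, then 32.8 and 54.6, and at 57.4 and 59.8 in AE/AE, then 46.2 and 55.5. Etv4 in AE/AE, at 0.84 ± 0.45 (adjusted p = 0.353), passed with GC and length offsets (1.09, adjusted p = 0.00962). With the design reported here, none of Etv4, Spred1 and Phlda1 passed under Wnt3a in either line.

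Per kilobase of transcript, the levels put the genes in an order that the treatments rearranged in part. In untreated 4-day WT cells, mean CPM per kilobase was 50.7 for Dusp6, 26.9 for Etv4, 24.6 for Phlda1, 20.8 for Spry2, 19.8 for Spred1, 13.7 for Etv5, 13.4 for Dusp4, 5.47 for Spry1, 2.22 for Dusp5 and 0.351 for Spry4. In untreated 4-day AE/AE cells Spred1 led, at 28.6, followed by Phlda1 at 24.4, Dusp6 at 23.9, Etv5 at 21.3 and Spry2 at 20.8, while Etv4 was at 3.03. Spry1 reached 22.5 in WT and 23.0 in AE/AE under Wnt3a, above Spry2 there (10.9 and 11.6). Spry4 was the lowest of the 10 in every group. Reads from the opposite strand could enter 3 of these values, because Dusp5 shares 547 of 2473 exonic bases with the antisense gene AC137853.2, Spry1 shares 710 of 2906 with Gm42922 and Phlda1 shares 727 of 2205 with Gm28592, and no source used here gives the strand setting of the counting.

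The genes did not follow one another as a single group. Over the 8 libraries of each line, log2 levels of Spry2 and Etv5 ran with Dusp6, with Pearson's r of 0.80 (WT) and 0.96 (AE/AE) for Spry2 and 0.86 and 0.83 for Etv5. Spry1 ran against it, at −0.43 and −0.56, and Etv4 gave 0.08 and −0.34. Among 10574 genes with a mean of at least 5 CPM, the genes outside the group most like Dusp6, by the smaller of the r in WT and the r in AE/AE, were Etv1 (0.81), Coro2a (0.80), Enpp3 (0.79), Casp9 (0.79) and Niban1 (0.75). Etv1 is the third PEA3-type factor beside Etv4 and Etv5. These values describe 8 libraries a line that share treatments and replicates.

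The rest of the pathway was read from 5 further lists. The counts stand beside the shares of all genes that changed. These were 27.6% for TGFb in WT, 10.4% in AE/AE, 4.28% for Wnt3a in WT and 9.33% in AE/AE. Between the untreated lines the share was 53.8%. The test of the difference between the lines in the change was passed by 8.83% of all genes for TGFb and 2.34% for Wnt3a. No list was tested against these shares. Of 6 other tested Dusp phosphatases of MAP kinases, none passed under TGFb or Wnt3a in either line, and 3 were lower in untreated AE/AE cells. Among these Dusp9, specific for ERK, was at 4.24 to 11.1 CPM in untreated WT and 0.165 to 0.607 in AE/AE (log2 −4.52 ± 0.36, adjusted p = 5.97e-07), and Dusp10, which acts on JNK and the stress kinases, was at 13.3 to 25.5 and 0.908 to 4.45 (−3.03 ± 0.41, adjusted p = 5.85e-05). Of 10 other feedback inhibitors, 2 rose and 2 fell under TGFb in WT, 1 rose in AE/AE, and under Wnt3a 1 rose and 1 fell in WT and 1 rose in AE/AE. Il17rd, a membrane inhibitor also known as Sef, was at 1.45 and 1.70 CPM in untreated 4-day WT cells and 14.7 and 13.4 with TGFb (3.16 ± 0.44, adjusted p = 0.000198). AE/AE cells went from 13.2 and 15.1 to 34.0 and 38.7 CPM (1.36 ± 0.39, adjusted p = 0.0462), a call lost without any 1 of the 4 libraries (adjusted p 0.146 to 0.284) and with the replicate block (0.0573). Under Wnt3a Il17rd went there from 6.72 and 14.3 to 53.3 and 82.9 CPM (2.70 ± 0.41, adjusted p = 0.00137).

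Spred3, a relative of Spred1, rose in WT from 5.58 and 5.37 to 26.3 and 30.1 CPM with TGFb (2.36 ± 0.25, adjusted p = 2.17e-05) and from 5.00 and 4.44 to 11.0 and 10.5 with Wnt3a (1.18 ± 0.24, adjusted p = 0.0168). The Wnt3a call of Spred3 was lost in the 3-day libraries alone (adjusted p = 0.359) and with GC and length offsets (0.80, adjusted p = 0.165). Spry3 stood at 8.26 and 8.39 CPM in untreated 4-day WT cells and at 0.983 and 0.673 with TGFb. With Wnt3a it fell in WT from 17.9 and 10.4 to 4.06 and 1.79 CPM (−2.27 ± 0.46, adjusted p = 0.0168). It was at most 0.579 CPM in any AE/AE library. The call of Spry3 was lost without untreated WT replicate 1 (−1.84, adjusted p = 0.08), without Wnt3a WT replicate 2 (−1.80, adjusted p = 0.117) and in the 3-day libraries alone (adjusted p = 0.226). Errfi1, which blocks the EGF receptor, went from 125 and 87.7 to 19.4 and 16.1 CPM with TGFb in WT, a fall that passed (−2.58 ± 0.41, adjusted p = 0.000509). In AE/AE cells Errfi1 was at 96.6 and 73.3 CPM untreated and 150 and 148 treated, which did not pass (0.81 ± 0.38, adjusted p = 0.245). The difference between these changes of 3.39 ± 0.55 passed (adjusted p = 0.00231). Of the 10 inhibitors, 3 passed that test of TGFb and none that of Wnt3a, against 8.83% and 2.34% of all genes. In untreated cells 2 were higher and 3 lower in AE/AE.

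Of 13 other transcripts induced by ERK, 1 rose and 3 fell with TGFb in WT, and 1 rose and 1 fell in AE/AE. With Wnt3a 1 fell in WT and none passed in AE/AE. Epha4 rose with TGFb in WT from 8.26 and 9.10 to 102 and 94.1 CPM (3.50 ± 0.32, adjusted p = 1.03e-05). In AE/AE it was at 51.8 and 50.8 CPM, then 69.2 and 73.9, and the difference between these changes was −3.02 ± 0.43 (adjusted p = 0.000899). Fosl1, an AP-1 subunit, fell in WT with TGFb from 46.0 and 62.2 to 5.06 and 7.68 CPM (−3.08 ± 0.58, adjusted p = 0.00167) and rose in AE/AE from 0.364 and 0.655 to 2.84 and 2.77 CPM (2.43 ± 0.65, adjusted p = 0.0328), and the AE/AE call was lost without any 1 of the 4 libraries (2.09 to 2.93, adjusted p 0.127 to 0.25). The change in AE/AE minus that in WT was 5.51 ± 0.86 (adjusted p = 0.0017). Ccnd1, the cell cycle gene of cyclin D, fell in AE/AE with TGFb from 686 and 674 to 327 and 322 CPM (−1.07 ± 0.30, adjusted p = 0.0388), a call lost without any of the 4 libraries (adjusted p 0.162 to 0.233). Etv1 fell with Wnt3a in WT from 6.52 and 4.48 to 2.41 and 1.35 CPM (−1.54 ± 0.34, adjusted p = 0.0258). The call of Etv1 was lost without untreated WT replicate 1 (−1.25, adjusted p = 0.126), without Wnt3a WT replicate 2 (−1.18, adjusted p = 0.177) and in the 3-day libraries alone (adjusted p = 0.316). Untreated AE/AE cells held 2 of the 13 at a higher and 6 at a lower level than WT.

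Of 20 core genes of the cascade from Grb2 to the ERK kinases and their Rsk substrates, 1 rose and 1 fell with TGFb in WT, and none passed under either factor in the other 3 comparisons with untreated cells or in the 2 tests between the lines. The gene that rose was the adaptor Gab1, from 35.6 and 31.7 to 60.9 and 54.8 CPM (0.78 ± 0.18, adjusted p = 0.0071), a call lost without untreated replicate 2 (0.70, adjusted p = 0.0755) or TGFb replicate 1 (0.71, adjusted p = 0.0574). In untreated cells 3 of the 20 were higher and 5 lower in AE/AE. Of 20 receptors and ligands, 6 rose and 3 fell with TGFb in WT, 5 rose and 1 fell in AE/AE, 2 fell with Wnt3a in WT, and 1 rose and 5 fell in AE/AE. Between the untreated lines 8 were higher and 7 lower in AE/AE. Fgfr2, a receptor for FGF, was at 7.35 to 8.59 CPM in untreated WT and 77.3 to 96.3 in AE/AE (3.49 ± 0.13, adjusted p = 2.01e-09). With TGFb it rose in WT from 7.83 and 7.35 to 35.2 and 39.9 CPM (2.31 ± 0.18, adjusted p = 3.43e-06). In AE/AE it was at 96.3 and 92.4 CPM untreated and 98.3 and 91.7 with TGFb. The difference between these changes was −2.30 ± 0.25 (adjusted p = 0.000187). With Wnt3a Fgfr2 fell in AE/AE from 92.4 and 77.3 to 26.9 and 27.7 CPM (−1.63 ± 0.17, adjusted p = 0.000123). In WT it was at 8.08 and 8.59, then 12.2 and 11.4. The Wnt3a difference of −2.14 ± 0.25 passed (adjusted p = 0.00138), though not in the 3-day libraries alone (adjusted p = 0.159). It was the 1 call among the 20 for Wnt3a, in a test that 2.34% of all genes passed. Fgfr3 went in AE/AE from 79.5 and 41.6 to 4.26 and 3.81 CPM with Wnt3a (−3.91 ± 0.41, adjusted p = 0.000112). Kit was at most 0.0471 CPM in any WT library. In AE/AE it fell with TGFb from 410 and 434 to 28.6 and 30.2 CPM (−3.84 ± 0.28, adjusted p = 5.52e-05).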

How the data were processed

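RNA from 16 samples of 2 cell lines was sequenced as stranded poly(A) libraries, and the submitters' processing notes name the aligner STAR and the build mm10. Aligner version, counting tool, annotation and strand setting were not given in the sources used here. Whole-number counts per Entrez gene ID were deposited by the authors, although the table's name speaks of CPM. NCBI's gene table for GRCm38.p6 named 19613 IDs, and 52 were tested unnamed. Genes with at least 1 CPM in at least 2 libraries entered edgeR 4.0.16 (quasi-likelihood, TMM scaling, 1 mean per group, all 16 libraries, 8 residual degrees of freedom; R 4.3.3). P-values were adjusted by Benjamini-Hochberg over 13172 genes with a threshold of 0.05, and SE was the log2 fold change over the square root of F. Treated and untreated groups share libraries between comparisons, so comparisons with the same controls are not independent. The script was tested on simulated data. Alternatives were median-ratio scaling, no filter, a filter of 5 CPM, DESeq2 1.42.0, limma 3.58.1 on log2(CPM + 1), 1 experiment at a time, a replicate block and leaving out each library; others, chosen after seeing the data, were total-count scaling, 2 other blocks, GC content and length offsets and leaving out the AE/AE libraries richest in Lars2. From each further list, up to 2 genes per comparison with the smallest adjusted p could be named, and for Dusp6 the 5 genes most like it; every one of the 10 genes is described. Genes with high replicate differences were named after their values were seen. The 10 genes and all lists were chosen with earlier results of these data known. The markers Cd3e and Plin1 were not analysed here.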

Additional observations from a re-analysis of the deposited data

Results flagged for a closer look

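Among the 4 untreated libraries of each line, 20 sets of values (10 genes in 2 lines) were checked for a library far from the other 3. For independent values of equal spread, chance gives this in about 1 of 20 sets. That rate need not hold here, because the sets share libraries and mix 2 experiments with unlike replicate spread. There were 4 such sets, all in the AE/AE line and all for replicate 1 of the 3-day cells. Dusp4 was at 21.2 CPM there, Dusp5 at 34.5 CPM and Spry4 at 7.16 CPM, each above the other 3 libraries, and Etv5 was at 63.2 CPM, below the other 3. The change of Etv5 under TGFb differed between the lines by −1.89 (log2, AE/AE minus WT, edgeR adjusted p = 0.00169), with a fall in AE/AE libraries and no passed change in WT. Its change under Wnt3a differed by −1.35 (adjusted p = 0.0371), with a fall in both lines.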

How the results depend on the processing

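The next counts cover every alternative except leaving out single libraries, and they include the fit without the Lars2-rich libraries. They cover the 10 genes and the genes that could be named from the further lists. Of these values, 1134 kept their side of the threshold. Some of these that passed in neither fit changed sign, each moving by less than the SE. A call was lost by 32 values and gained by 28. Another 9 values that had not passed changed sign and moved by at least the SE, and none that had passed reversed. With 2 libraries a group and low counts for Dusp5 and Spry4, single libraries decide several calls. Genes passing among the 10, TGFb in AE/AE: 5 from the 4-day libraries alone (main 3). Wnt3a in WT: 1 with no filter, 0 from the 3-day libraries alone, 1 under total-count scaling and 4 with the replicate block within line (main 2). Wnt3a in AE/AE: 1 from the 3-day libraries alone (main 4). Untreated lines: 1 from the 3-day libraries alone (main 6). TGFb difference between lines: 4 from the 4-day libraries alone, 2 with the block within line and 3 with GC and length offsets (main 1). Wnt3a difference: 0 with no filter, 0 from the 3-day libraries alone, 2 with GC and length offsets and 0 without the Lars2-rich libraries (main 1). Fits on 1 experiment have fewer samples and take the spread from that experiment alone. The main fit takes it from all 16 libraries. The SD of the log2 replicate ratio was 0.153 to 0.329 in the 4-day groups and 0.337 to 0.759 in the 3-day groups. What caused these changes in number was not tested. Leaving out single libraries gave 0 to 3 for TGFb in WT, 1 to 2 in AE/AE, 1 to 3 for Wnt3a in WT, 2 to 5 in AE/AE, 4 to 6 for the untreated lines, 1 for the TGFb difference and 0 to 1 for the Wnt3a difference; the lone library left is assumed to vary like the other groups.

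Over all genes, the 3634 calls for TGFb in WT became 7213 (4-day libraries alone) and 5911 (GC and length offsets), and 2101 to 2363 with a library left out. TGFb in AE/AE went from 1371 to 4517, 3188, 2181 (block within line) and 352 to 459. Wnt3a in WT went from 564 to 20 (3-day libraries alone), 1291 (DESeq2), 2250 (block within line), 1964 (offsets) and 281 to 3139. Wnt3a in AE/AE went from 1229 to 357, 1894, 2614, 475 (without the Lars2-rich libraries), and 577 and 655 without Wnt3a replicate 1 or 2. The untreated lines went from 7082 to 2658 (3-day alone). The TGFb difference went from 1163 to 3890, 1784, 2589 and 637 to 717, and the Wnt3a difference from 308 to 8, 703 (DESeq2), 731 (limma), 1188, 1081, 106 and 114 to 1897. Total-count scaling moved the median of all genes by −0.115 (TGFb in WT), −0.102 (TGFb in AE/AE), 0.114 (Wnt3a in WT) and −0.118 (Wnt3a difference). Among passing genes the share higher went from 53.1% to 43.9%, from 58.5% to 51.2%, from 52.8% to 61.1% and from 50.3% to 43.3%. No direction changed for a passed gene among those named in the report, and the other genes were not checked for this.

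Replicates with the same number deviated together within a line (r = 0.797 and 0.762 in WT, 0.307 and 0.423 in AE/AE, untreated against treated). Untreated 4-day and 3-day cells of a line did so too (0.76 in WT, 0.36 in AE/AE). Between the lines, untreated groups deviated in opposite directions (−0.45 at 4 days, −0.596 at 3 days). Treated groups gave −0.0113 with TGFb and −0.0928 with Wnt3a. No label says what a number shares, so the block was kept as an alternative. The block within line added calls for Spry2 (TGFb in AE/AE, Wnt3a in WT, untreated lines), Spred1 (Wnt3a in WT), Spry4 (Wnt3a in AE/AE) and Dusp6 (TGFb difference). With the replicate block the number passing was 3 for TGFb in WT, 4 in AE/AE (Spry2 added), 2 for Wnt3a in WT, 4 in AE/AE, 6 for the untreated lines and 1 for each difference. A block crossed between the lines gave 6, 1 and 1 for the last 3, and 8192, 1620 and 709 of all genes.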
